A study of Mus musculus with 14 samples.

Results

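The expression of 9 genes of the cadherin–catenin adhesion complex was examined in all 14 libraries of the series. The genes were 5 cadherins (*Cdh1*, *Cdh2*, *Cdh3*, *Cdh6* and *Cdh11*) and 4 catenins (*Ctnnb1*, *Jup*, *Ctnna1* and *Ctnnd1*). They were chosen by name with earlier results of these data known, and all 9 were found among the 28022 genes of the count table. Cadherins are transmembrane proteins that bind a cadherin of the neighboring cell through calcium-dependent extracellular domains. Inside the cell, the cadherin tail is held by β-catenin (*Ctnnb1*) or by its relative plakoglobin (*Jup*), which in turn bind αE-catenin (*Ctnna1*), the link to actin filaments. p120-catenin (*Ctnnd1*) binds the tail nearer to the membrane and keeps the cadherin at the cell surface. In the liver, hepatocytes carry both E-cadherin and N-cadherin, bile duct cells carry E-cadherin, and β-catenin is also the transcriptional effector of Wnt signaling.

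The study asked how 3D culture and endothelial cells change hepatic stem cells, and its 7 conditions had 2 libraries each, all of mouse strain C57BL/6J by label. Fibroblasts were the cells of origin. Induced hepatic stem cells (iHepSCs) were made from such fibroblasts with lentiviral *Oct4* and *Hnf4α*, so all 4 culture conditions carried both factors. They were grown as a monolayer on collagen (2D-iH), as a monolayer with induced endothelial cells (2D-iHE), as a spheroid in a hydrogel of collagen and Matrigel (iHLO, labelled 3D-iHA), and as such a spheroid in hydrogel that held induced endothelial cells (iHEA). The endothelial cells (iECs) came from a human fibroblast line with lentiviral *ETV2*, and all 4 cultures received the same mixed medium with oncostatin M. Reads from the human cells were counted only where they aligned to the mouse genome. Adult liver and fetal liver were the reference tissues, and their labels give no age or sex.

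Total counts per library ranged from 20851489 to 35143325. Levels are given as CPM (counts scaled to the size of the library), with library sizes scaled by the trimmed mean of M-values (TMM), and, where genes are compared with each other, as CPM per kilobase of exon. A level of 3 counts, between 0.0751 and 0.124 TMM-scaled CPM in the fibroblast, culture and fetal liver libraries and 0.204 and 0.196 in adult liver, was taken as the floor of detection. The labels do not show whether the 2 libraries of a condition came from separate cultures or animals, so p-values measure the spread between these libraries, which may be technical. The libraries of a condition differed by 3.05 to 3.67 chi-square units per gene in 5 conditions but by 11.5 in iHEA and 13.4 in fetal liver, so all pairs differed by more than counting noise and these 2 conditions were the least repeatable. The defining hepatocyte gene *Alb* was between 0.0751 and 5.72 CPM in the cultures against 551571 and 514352 CPM in adult liver, and the defining endothelial gene *Pecam1* was between 0.0751 and 0.67 CPM in the cultures, with or without iECs.

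Promoter sequences are shown for 3 members whose levels behaved differently: *Cdh6*, which was near the floor in fibroblasts and abundant in every culture, *Jup*, which followed culture method, and *Ctnnb1*, which was abundant in every library. RefSeq promoter entries (GRCm38.p6, 300 bases around the transcription start) were listed for *Cdh6*, *Jup*, *Ctnnb1* and *Ctnnd1*, 6 entries in all. The entries lie at chr15:13173626-13173925 (minus strand) for *Cdh6*, chr11:100397741-100398040 (minus strand) for *Jup* and chr9:120933150-120933449 (plus strand) for *Ctnnb1*. They are written 5′ to 3′ with CG dinucleotides in capitals, since CG-rich promoters are typical of broadly expressed genes.
Cdh6: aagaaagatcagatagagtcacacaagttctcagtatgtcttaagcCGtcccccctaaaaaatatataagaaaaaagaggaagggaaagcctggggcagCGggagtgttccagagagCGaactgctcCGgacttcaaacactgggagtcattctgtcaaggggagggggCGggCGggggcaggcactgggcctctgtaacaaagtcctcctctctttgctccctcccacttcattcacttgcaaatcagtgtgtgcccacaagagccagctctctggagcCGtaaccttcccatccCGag
Jup: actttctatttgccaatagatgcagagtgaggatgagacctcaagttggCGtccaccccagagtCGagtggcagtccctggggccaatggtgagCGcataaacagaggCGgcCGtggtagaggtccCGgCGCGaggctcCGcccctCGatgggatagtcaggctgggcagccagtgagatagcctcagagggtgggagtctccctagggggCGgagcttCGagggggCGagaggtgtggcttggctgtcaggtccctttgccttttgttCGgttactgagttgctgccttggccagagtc
Ctnnb1: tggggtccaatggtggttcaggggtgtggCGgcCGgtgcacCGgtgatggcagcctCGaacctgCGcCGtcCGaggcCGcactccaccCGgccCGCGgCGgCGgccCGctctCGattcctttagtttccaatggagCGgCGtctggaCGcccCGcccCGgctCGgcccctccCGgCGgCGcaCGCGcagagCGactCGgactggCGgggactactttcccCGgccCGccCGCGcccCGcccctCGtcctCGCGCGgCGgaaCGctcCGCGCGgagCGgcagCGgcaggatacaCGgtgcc
The *Cdh6* sequence held 8 CG dinucleotides, that of *Jup* 14 and that of *Ctnnb1* 46, where the median over all promoters of the table was 7. Promoters with at least as many CG made up 48.6% of the table for *Cdh6*, 36.3% for *Jup* and 1.65% for *Ctnnb1*. None of the 6 entries held CACCTG or its reverse complement CAGGTG, the E-box bound by Snail and ZEB factors, which 20.2% of 32851 promoters held. None held CTTTGAT or ATCAAAG, a sequence bound by TCF and LEF factors with β-catenin, which 3.73% of all promoters held. These matches describe the letters of a short window only.

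All 9 members were found, but 2 of them, *Cdh3* and *Cdh11*, had between 0 and 7 counts in each of the 8 culture libraries and did not pass the filter on low counts there. The other 7 members were tested between cultures with edgeR's quasi-likelihood test, and a gene was called when its Benjamini-Hochberg adjusted p was under 0.05. In 3D against 2D (4 libraries each), 7 of 7 tested members were called, 4 higher and 3 lower, against a background of 75.9% of 13409 tested genes called. A count of 7 of 7 is thus near what the whole table showed. The median absolute log2 fold change was 1.13 for the 7 tested members and 0.45 over all tested genes. The members were chosen with earlier results of these data known, so this difference may follow from the choice. *Cdh1*, *Jup*, *Ctnnd1* and *Ctnnb1* were higher in 3D, and *Cdh2*, *Cdh6* and *Ctnna1* were lower. In bulk RNA, fewer cells of a type and less RNA per cell cannot be told apart.

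The same 4 members were higher and the same 3 lower in each culture setting taken alone. In iHLO against 2D-iH, 7 of 7 were called (background 72.3%), and in iHEA against 2D-iHE 7 of 7 were called (background 70.9%). In iHEA against iHLO, 2 of 7 were called and both were higher in iHEA (background 2.26%). In 2D-iHE against 2D-iH, 0 of 7 were called by edgeR (background 8.17%), where 2 had an unadjusted p under 0.05 and DESeq2 called 1. The effect of iECs in 3D minus their effect in 2D was called for 0 of 7 members by edgeR (background 3.14%), again with 2 at an unadjusted p under 0.05 and 1 called by DESeq2. These comparisons share libraries, so their values are given side by side and not as independent results.

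**Figure D1:**
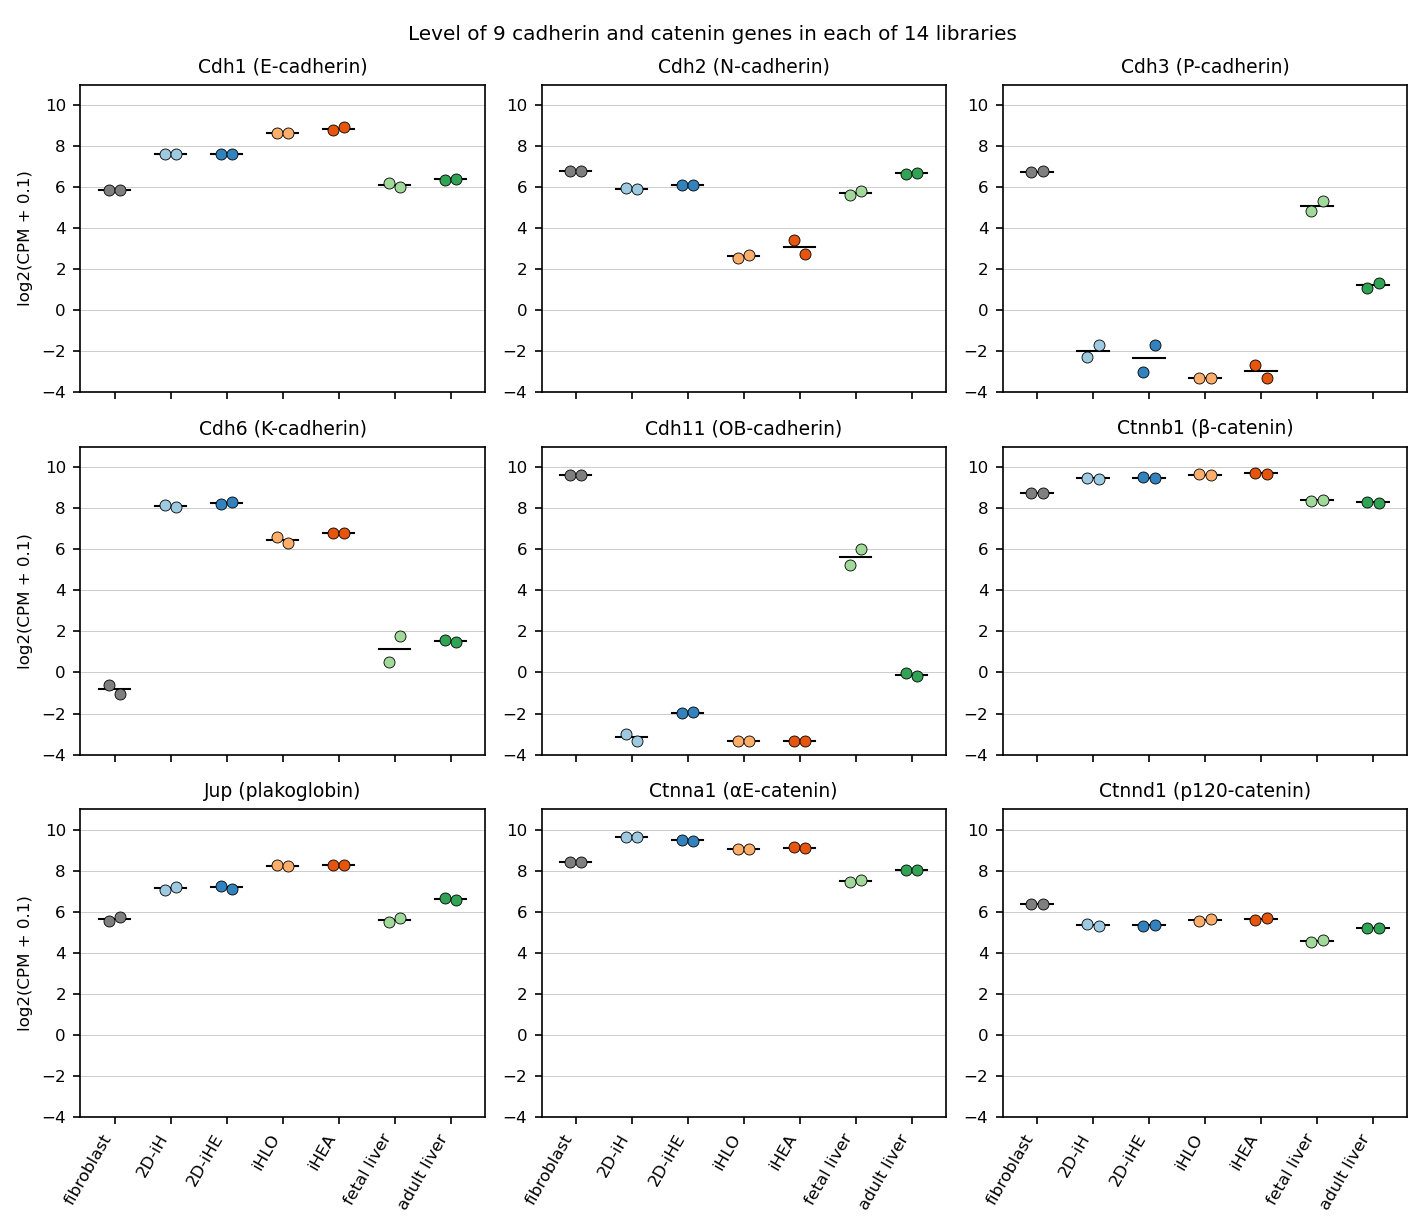
Level of each of the 9 members in each of the 14 libraries, as log2(CPM + 0.1), with the 7 conditions on the horizontal axis, 1 point per library and a bar at the mean of the 2. *Cdh1* and *Jup* stand highest in iHLO and iHEA, *Cdh2* drops in both 3D conditions, *Cdh6* is high in cultures only, and *Cdh3* and *Cdh11* are high in fibroblasts and fetal liver and near the floor in cultures.

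*Cdh1* encodes E-cadherin, the epithelial cadherin (chromosome 8 of GRCm38, 106603351 to 106670246, plus strand). In 2D cultures its level was 195.4 and 195.3 CPM in 2D-iH and 197.2 and 195.5 CPM in 2D-iHE. In 3D cultures it was 394.5 and 391.8 CPM in iHLO and 438.2 and 479.3 CPM in iHEA. All 4 libraries in 3D were above all 4 in 2D, with 425.95 ± 41.5 against 195.9 ± 0.91 CPM (SD, n = 4 each). The log2 fold change of 3D against 2D was 1.16 (SE 0.06, edgeR adjusted p = 1.65e-08).
The reference samples were lower, at 57.7 and 57.8 CPM in fibroblasts, 82.5 and 84.4 CPM in adult liver and 74.5 and 63.4 CPM in fetal liver. *Cdh1* was therefore detected in fibroblasts, with 2117 and 1770 counts. The order of the conditions, from iHEA and iHLO over 2D-iHE, 2D-iH, adult liver and fetal liver to fibroblasts, had no overlap between neighbors, although the means of 2D-iHE and 2D-iH, 196.4 and 195.3 CPM, were not told apart by the test (edgeR adjusted p = 0.872). Scaled by total count, the cultures kept this order, but adult liver (35.4 and 37.0 CPM) came last, below fetal liver (85.5 and 74.6 CPM) and fibroblasts (64.1 CPM in both).

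*Cdh2*, N-cadherin (chromosome 18, 16588877 to 16809246, minus strand), went the other way and had the largest change among the 7 tested members between 3D and 2D. Monolayers held 61.3 and 60.3 CPM in 2D-iH and 69.0 and 68.0 CPM in 2D-iHE. Spheroids held 5.76 and 6.39 CPM in iHLO and 10.4 and 6.63 CPM in iHEA, from 189 to 353 counts per library. The 2 groups were far apart, and *Cdh2* was 8.59-fold lower in 3D (log2 fold change -3.10, SE 0.14, edgeR adjusted p = 4.13e-09).
The 2 iHEA libraries differed for this gene, the first being higher than both iHLO libraries by more than the second. Outside the cultures, *Cdh2* was at 108.4 and 109.8 CPM in fibroblasts, 101.0 and 101.5 CPM in adult liver and 48.4 and 56.4 CPM in fetal liver. The 3D cultures were thus below every other condition, and the monolayers stood between fetal and adult liver under TMM scaling but above both when scaled by total count, where adult liver had 43.3 and 44.5 CPM and 2D-iH 68.2 and 67.6 CPM. No neighboring conditions overlapped in the TMM order.

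*Cdh6*, K-cadherin, which is known from the developing kidney (chromosome 15, 13028701 to 13173675, minus strand), was a cadherin of the cultured cells. It stood at 0.55 and 0.39 CPM in fibroblasts, 2.86 and 2.67 CPM in adult liver and 1.34 and 3.39 CPM in fetal liver. In 2D cultures it reached 285.4 and 268.9 CPM (2D-iH) and 299.7 and 315.0 CPM (2D-iHE), and in 3D cultures 96.1 and 79.7 CPM (iHLO) and 110.9 and 110.3 CPM (iHEA). Every culture library was above every reference library, and every 2D library was above every 3D library. *Cdh6* fell 2.87-fold from 2D to 3D (log2 fold change -1.52, SE 0.10, edgeR adjusted p = 6.55e-08). Adult and fetal liver overlapped for *Cdh6*, as the 2 fetal libraries were on either side of the adult ones.

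*Cdh3* (P-cadherin, chromosome 8, 106510891 to 106557297) and *Cdh11* (OB-cadherin, a cadherin of mesenchymal cells, chromosome 8, 102632095 to 102785642) were marks of the starting cells. *Cdh3* is the gene next to *Cdh1*, with a gap of 46054 bases between them. *Cdh3* had 106.6 and 109.6 CPM in fibroblasts, 28.3 and 39.4 CPM in fetal liver and 2.04 and 2.41 CPM in adult liver. The cultures were at or near the floor: 2D-iH had 4 and 7 counts, 2D-iHE had 1 and 5, both iHLO libraries had 0, and iHEA had 2 and 0. *Cdh3* was at least 1199-fold lower in iHLO than in fibroblasts, taking 3 counts per library as the floor.
*Cdh11* had 802.8 and 777.8 CPM in fibroblasts, 37.9 and 65.0 CPM in fetal liver and 0.88 and 0.78 CPM in adult liver. It had 1 and 0 counts in 2D-iH, 6 and 4 in 2D-iHE and 0 in each of the 4 libraries in 3D. The fall from fibroblasts to 2D-iH was at least 9120-fold and that from fibroblasts to iHLO at least 8761-fold. The few *Cdh11* counts of 2D-iHE were the highest of the cultures.

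Per kilobase of exon, the cadherins could be compared with each other. Over 18 classical cadherin genes (the 5 members and 13 others), the members held 91.8% to 92.0% of the summed level in fibroblasts, 42.9% to 47.4% in the 2D cultures and 47.5% to 57.4% in the 3D cultures. *Cdh11* alone made up 57.8% to 59.0% in fibroblasts. *Cdh1* made up 22.5% to 23.5% in the 2D cultures, 42.7% to 43.6% in iHLO and 47.1% to 51.0% in iHEA. *Cdh6* made up 16.0% to 19.2% in 2D and 4.40% to 6.04% in 3D, and *Cdh2* 4.00% to 4.66% in 2D and 0.36% to 0.64% in 3D.
In cultures and livers, the largest part outside the members was *Cdh5*, VE-cadherin, the cadherin of endothelial cells. It made up 55.6% to 55.7% in 2D-iH and 50.0% to 51.7% in iHLO, conditions without iECs, and 51.1% to 52.2% in 2D-iHE and 41.9% to 45.5% in iHEA, conditions with iECs. In CPM, *Cdh5* was at 442.9 and 437.3 in 2D-iH and at 0 and 0.0326 in fibroblasts, at least 4898-fold higher in 2D-iH. It was chosen for description after its values were seen. Adult liver had a different makeup, with *Cdh1* at 37.3% to 38.5%, *Cdh5* at 29.4% to 31.6% and *Cdh2* at 25.9% to 26.3%. Fetal liver spread its cadherin transcripts over *Cdh1* (23.4% to 31.3%), *Cdh5* (25.4% to 26.9%), *Cdh3* (12.4% to 15.2%), *Cdh2* (11.5% to 11.8%), *Cdh11* (8.18% to 12.3%) and *Cdh24* (6.87% to 7.63%).

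**Figure D2:**
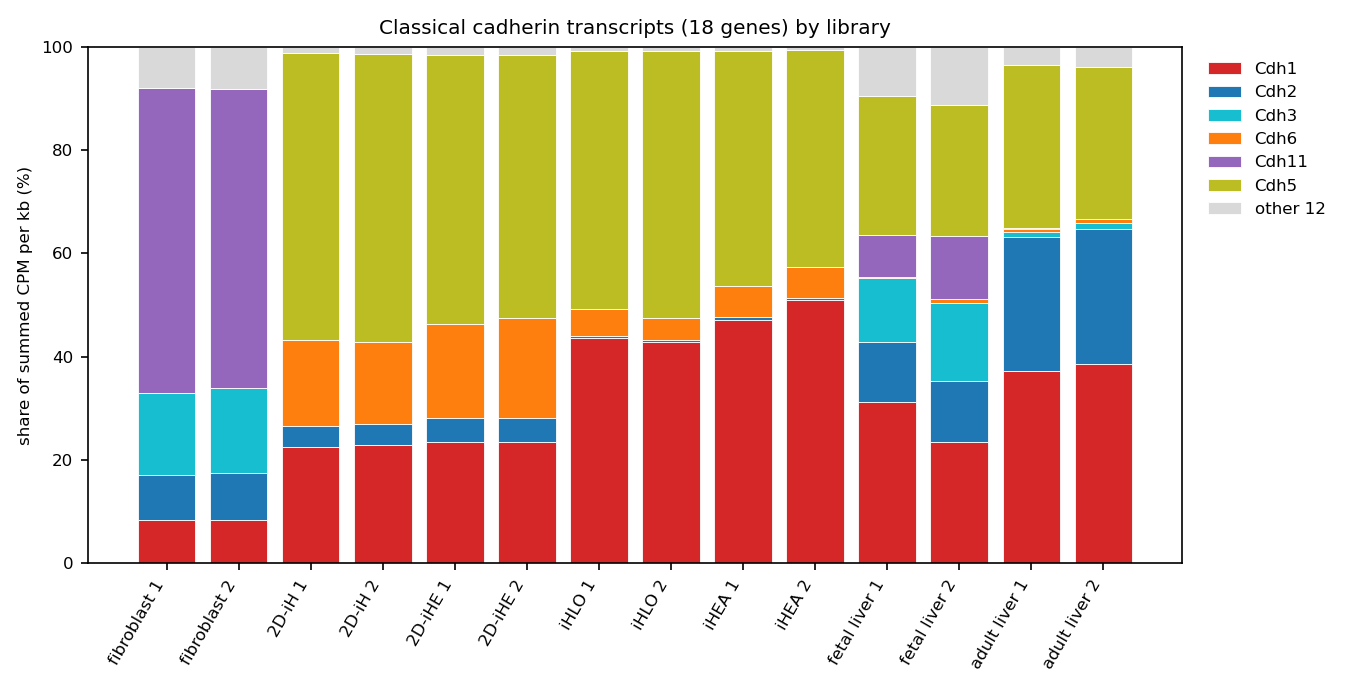
Makeup of classical cadherin transcripts in each library, as the share (in percent) of the CPM per kilobase summed over 18 genes. Stacked bars show the 5 member cadherins, *Cdh5*, and the other 12 genes together. *Cdh11* fills most of the fibroblast bars, *Cdh5* and *Cdh1* most of the culture bars, and the *Cdh1* part grows from at most 23.5% in 2D to at least 42.7% in 3D.

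*Ctnnb1*, β-catenin (chromosome 9, 120929216 to 120960507, plus strand), was abundant in every condition. It had 715.0 and 689.1 CPM in 2D-iH, 731.7 and 702.3 CPM in 2D-iHE, 805.5 and 787.0 CPM in iHLO and 853.6 and 828.6 CPM in iHEA. The 3D libraries were all above the 2D libraries, but by a small step, with a log2 fold change of 0.24 (SE 0.04, edgeR adjusted p = 0.000168). Fibroblasts had 429.4 and 431.7 CPM, fetal liver 325.0 and 343.3 CPM and adult liver 321.7 and 304.9 CPM, all below the cultures. Annotated genes on the opposite strand overlap *Ctnnb1* (*Ulk4*), *Cdh2* (*Gm15485*) and *Ctnna1* (*Lrrtm2*), and whether counting used strand is not given in the sources used here. Genes on the same strand overlap *Ctnnd1* (*Gm28635*) and *Cdh11* (*Gm45257*, *Gm45258* and *9430099M06Rik*), so reads where they overlap are uncertain.

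*Jup* encodes plakoglobin, which binds the cadherin tail in place of β-catenin and also serves in desmosomes (chromosome 11, 100368958 to 100397763, minus strand). Monolayers had 134.4 and 149.2 CPM in 2D-iH and 154.2 and 136.6 CPM in 2D-iHE. Spheroids had 304.8 and 301.0 CPM in iHLO and 310.1 and 305.8 CPM in iHEA. The 2D conditions overlapped each other, while the 4 libraries in 3D lay close together and far above, a 2.18-fold rise (log2 fold change 1.13, SE 0.05, edgeR adjusted p = 2.17e-09). In the references *Jup* was at 47.3 and 53.0 CPM in fibroblasts, 45.1 and 50.8 CPM in fetal liver and 100.3 and 93.3 CPM in adult liver. Fibroblasts and fetal liver overlapped at the bottom of the order, where adult liver stood instead when scaled by total count.

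*Ctnna1*, αE-catenin (chromosome 18, 35118859 to 35254779, plus strand), was the only one of the 4 member catenins that fell from 2D to 3D. It had 797.8 and 786.0 CPM in 2D-iH, 714.1 and 705.6 CPM in 2D-iHE, 527.4 and 528.8 CPM in iHLO and 561.7 and 540.5 CPM in iHEA. All 3D libraries were below all 2D libraries (log2 fold change -0.44, SE 0.05, edgeR adjusted p = 5.85e-06), and none of the 4 culture conditions overlapped another. The references were lower than every culture, with 346.3 and 340.8 CPM in fibroblasts, 259.0 and 264.5 CPM in adult liver and 172.4 and 185.9 CPM in fetal liver.
*Ctnnd1*, p120-catenin (chromosome 2, 84600071 to 84650765, minus strand), differed little between cultures. Its level was 42.5 and 39.4 CPM in 2D-iH, 39.6 and 41.1 CPM in 2D-iHE, 46.0 and 49.3 CPM in iHLO and 49.0 and 51.3 CPM in iHEA. The rise in 3D was small (log2 fold change 0.30, SE 0.05, edgeR adjusted p = 9.46e-05), 2D-iH overlapped 2D-iHE, and iHLO overlapped iHEA. Fibroblasts were highest with 84.1 and 82.2 CPM, and adult liver had 37.1 and 36.2 CPM and fetal liver 23.1 and 24.8 CPM. Of the 4 member catenins, *Ctnnd1* was the one whose level in fibroblasts was above that in every culture library.

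Ratios of members within a library do not depend on the scaling of libraries. Per kilobase, *Cdh1* and *Cdh2* were near parity in fibroblasts, with 0.93 to 0.94 *Cdh1* transcripts per *Cdh2* transcript. The ratio was 1.44 to 1.47 in adult liver, 1.98 to 2.71 in fetal liver, 5.04 to 5.71 in 2D and 73.8 to 127 in 3D. The log2 ratio was 2.42 ± 0.10 in 2D and 6.71 ± 0.35 in 3D (SD, n = 4 each), a difference of 4.29 with no overlap between the groups. The lowest value in 3D came from the first iHEA library, and both livers lay outside the range of the cultures.
The transcripts of *Jup* and *Ctnnb1*, whose proteins bind the same place on the cadherin tail, also changed in proportion. *Jup* made up 13.2% to 14.9% of *Jup* and *Ctnnb1* transcripts per kilobase in 2D, 22.7% to 23.6% in 3D, 19.8% to 20.1% in adult liver, 10.1% to 10.7% in fetal liver and 8.16% to 9.01% in fibroblasts. The ratio of *Ctnna1* to *Ctnnb1* went from 0.79 to 0.92 in 2D down to 0.53 to 0.54 in 3D. There were 3.11 to 3.27 *Ctnnb1* transcripts per *Cdh1* transcript in 2D and 1.52 to 1.80 in 3D.

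**Figure D3:**
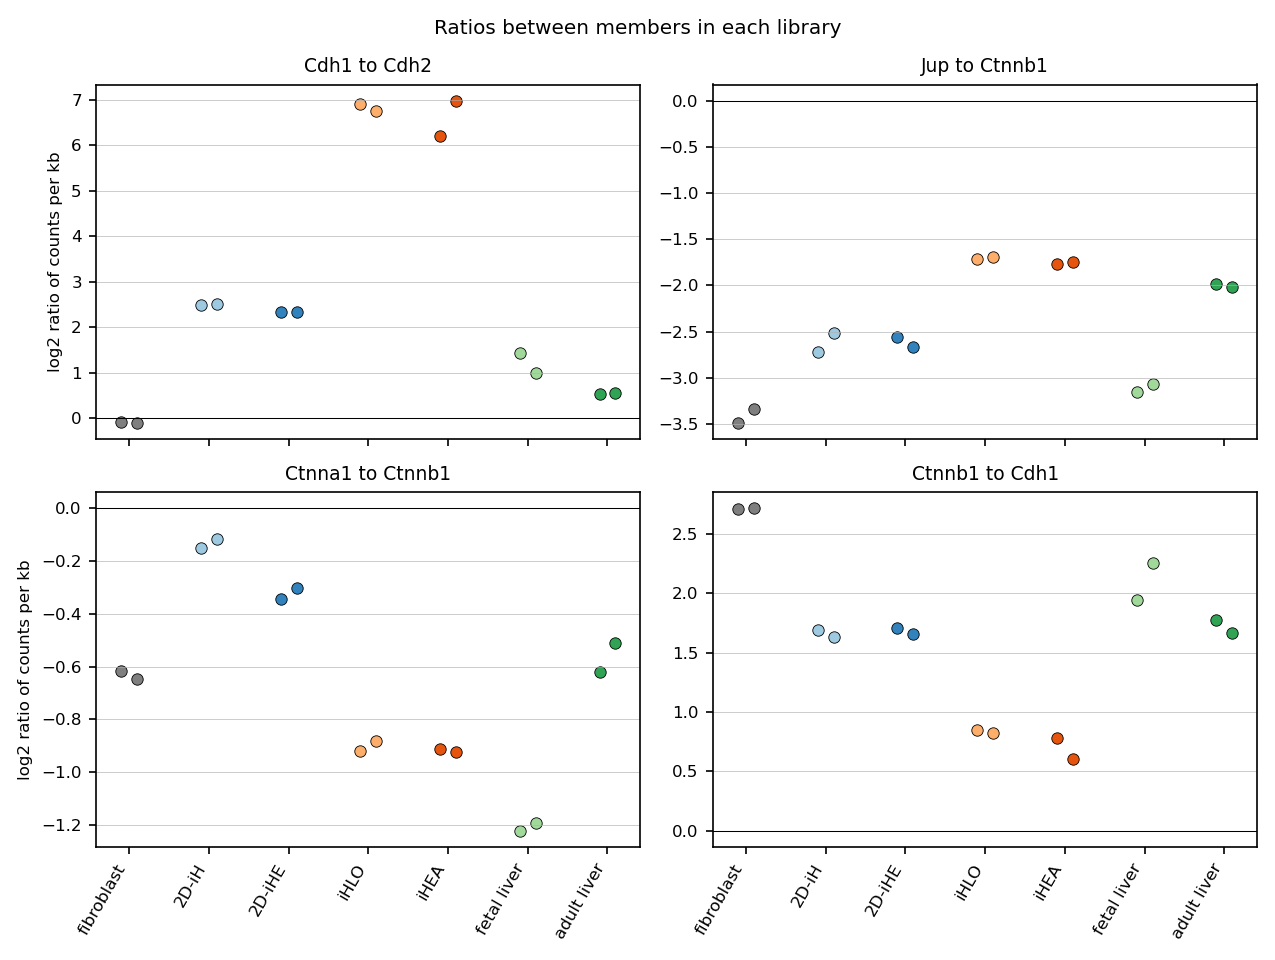
Ratios between pairs of members in each of the 14 libraries, as the log2 ratio of counts per kilobase, with 1 panel for each of 4 ratios and the 7 conditions on the horizontal axes. The *Cdh1* to *Cdh2* ratio is 6.21 to 6.99 in 3D against 2.33 to 2.51 in 2D, and in all 4 panels the 3D libraries stand apart from the 2D libraries.

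The addition of iECs was the smaller contrast. In 3D, *Cdh1* was higher in iHEA than in iHLO by a log2 fold change of 0.23 (SE 0.05, edgeR adjusted p = 0.0466) and *Cdh6* by 0.33 (SE 0.08, edgeR adjusted p = 0.0392). Both calls were close to the threshold. They were lost, with 0 members called, when all 14 libraries shared the fit, when only iHLO and iHEA were fitted, or when either 2D-iH library, either 2D-iHE library or the second iHLO library was left out, and without the first iHLO library 1 member was called. Over 15 alternatives the adjusted p ranged from 0.000517 to 0.286 for *Cdh1* and from 7.7e-06 to 0.319 for *Cdh6*. *Cdh1* was also lost without the second iHEA library (log2 fold change 0.15). The same held with the replicate block (0.16), a fit that also left out this library because it has no replicate number. *Cdh2* had a log2 fold change of 0.51 (SE 0.16, edgeR adjusted p = 0.139) and was not called. Without the second iHEA library its value was 0.78 (edgeR adjusted p = 6.19e-05) and without the first 0.14, where the lone iHEA library is assumed to vary like the other groups, so the result for *Cdh2* rested on which iHEA library was used. It was also called without the filter on low counts (0.50). With the replicate block its value was 0.79, but that fit also left out the second iHEA library and is not separate from the 0.78. Over 15 alternatives the adjusted p of *Cdh2* ranged from 2.07e-06 to 0.633.
The 4 catenins had log2 fold changes of 0.08 (*Ctnnb1*), 0.07 (*Ctnna1*), 0.08 (*Ctnnd1*) and 0.03 (*Jup*) in this contrast, with 95% confidence intervals from -0.11 to 0.21 over all 4.
*Cdh5* was at 388.9 and 362.1 CPM in iHEA and at 415.8 and 435.9 CPM in iHLO, so its mouse-aligned counts were not higher where iECs were present. Reads of the human iECs were counted only where they aligned to the mouse genome. These values therefore do not show whether iECs added VE-cadherin transcripts.

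In 2D, iECs came with log2 fold changes between -0.14 and 0.19 for the 7 members, and none was called. The value farthest from 0 in terms of its error was that of *Ctnna1*, at -0.14 (SE 0.04, edgeR adjusted p = 0.0695), with both 2D-iHE libraries below both 2D-iH libraries. DESeq2 called this gene. *Cdh2* stood at 0.19 (95% confidence interval -0.03 to 0.40) and *Cdh6* at 0.16 (0.01 to 0.32). *Cdh1* (0.02), *Ctnnb1* (0.04), *Ctnnd1* (-0.01) and *Jup* (0.05) lay nearer to 0. Fitting only the 4 libraries in 2D called 3 of 7 members (*Cdh2*, *Cdh6* and *Ctnna1*).
The difference between the iEC effects in 3D and in 2D was 0.21 for *Cdh1* (SE 0.08, edgeR adjusted p = 0.201) and 0.21 for *Ctnna1* (SE 0.06, edgeR adjusted p = 0.108), so an effect of iECs that differs between culture methods was not shown for either by edgeR. It was 0.32 for *Cdh2* (SE 0.19), 0.17 for *Cdh6* (SE 0.10), 0.04 for *Ctnnb1* (SE 0.06), 0.09 for *Ctnnd1* (SE 0.09) and -0.02 for *Jup* (SE 0.09), and none of these was called by edgeR. DESeq2 called 1 of the 7 members in this contrast.

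**Figure D4:**
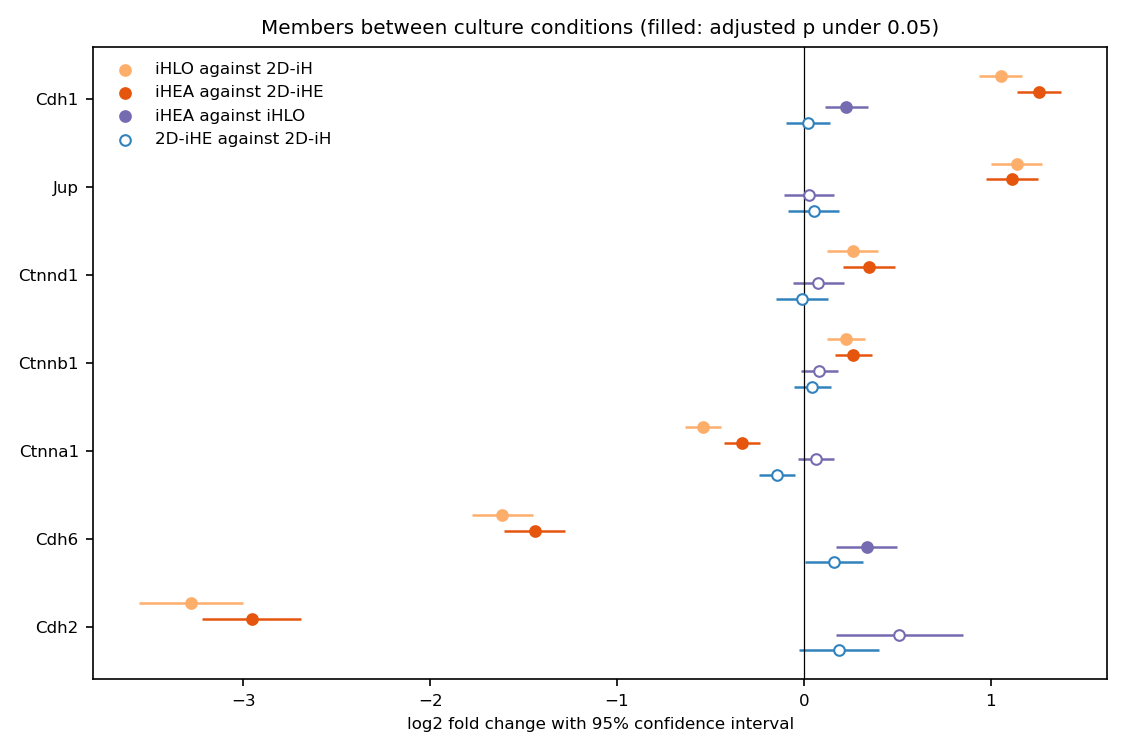
Log2 fold change of the 7 tested members with 95% confidence interval in 4 comparisons between culture conditions (2 libraries each), where filled points had an adjusted p under 0.05 by edgeR. In both comparisons of 3D with 2D, *Cdh1* (1.05 and 1.26) and *Jup* (1.14 and 1.11) lie far above 0 and *Cdh2* (-3.28 and -2.95) far below it, while the comparisons with and without iECs lie near 0.

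Against fibroblasts, 2D-iH had 7 of 7 members called, 5 higher and 2 lower, among those over the filter in both conditions (background 83.9% of 14121 tested genes). *Cdh3* and *Cdh11* passed the filter through fibroblasts and fetal liver, where they were high, so their calls are not counted. The largest rise was *Cdh6* (log2 fold change 9.17, SE 0.22, edgeR adjusted p = 3.49e-15), followed by *Cdh1* at 1.75 (SE 0.07), *Jup* at 1.49 (SE 0.08), *Ctnna1* at 1.2 (SE 0.06) and *Ctnnb1* at 0.70 (SE 0.06). *Ctnnd1* was lower at -1.03 (SE 0.06) and *Cdh2* at -0.85 (SE 0.10). *Cdh3* and *Cdh11*, given above by counts and bounds, were near the floor in 2D-iH, while *Cdh2* was not. Fibroblast markers moved with this contrast: of 6 marker genes, *Col1a2*, *Col3a1* and *Thy1* were at the floor in 2D-iH, and the summed marker level was 28861 to 30556 CPM in fibroblasts and 1606 to 1638 CPM in 2D-iH, most of it *Vim*.

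Against fetal liver, 2D-iH had 6 of 7 members over the filter in both conditions called, all higher (background 85.3%). *Cdh6* (log2 fold change 6.88, SE 0.18), *Ctnna1* (2.13, SE 0.06), *Jup* (1.55, SE 0.08), *Cdh1* (1.48, SE 0.07), *Ctnnb1* (1.05, SE 0.06) and *Ctnnd1* (0.76, SE 0.06) were higher in 2D-iH. *Cdh3* and *Cdh11*, which passed the filter only through other conditions than 2D-iH, are not counted; *Cdh11* was at least 594-fold lower. *Cdh2* was at 0.20 (SE 0.10, edgeR adjusted p = 0.0869) and was not called, although it was called at 0.30 (edgeR adjusted p = 0.0154) without the second fetal liver library, a fit in which the lone fetal library is assumed to vary like the other groups, and stood at -0.02 without the first, with an adjusted p between 0.000116 and 0.86 over 20 alternatives, 6 of which called it. Fetal liver holds blood-forming cells, and 4 erythroid marker genes summed to 22831 to 24014 CPM there and to at most 0.599 CPM in the cultures, and the part of this difference in the members' values was not tested.

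Against adult liver, iHLO had 7 of 7 members over the filter in both conditions called, 6 higher and 1 lower (background 84.9%). The higher members were *Cdh6* (log2 fold change 4.94, SE 0.21), *Cdh1* (2.19, SE 0.07), *Jup* (1.60, SE 0.08), *Ctnnb1* (1.30, SE 0.06), *Ctnna1* (0.97, SE 0.06) and *Ctnnd1* (0.33, SE 0.07). The lower one was *Cdh2* at -4.10 (SE 0.13, edgeR adjusted p = 8.76e-14). *Cdh3* and *Cdh11*, with 0 counts in iHLO, are not counted and were at least 24.7-fold and at least 9.24-fold lower. The step to 3D moved *Cdh2* away from its adult liver level, from 61.3 and 60.3 CPM in 2D-iH to 5.76 and 6.39 CPM in iHLO, with 101.0 and 101.5 CPM in adult liver, and it also moved *Cdh1* away. *Cdh6*, in turn, was nearer to the livers in 3D than in 2D but still far above them. A different scaling moves all values of this contrast together: with DESeq2's size factors the median log2 fold change of all tested genes was -0.02 in place of 0.13. Scaling by total count moved the values far more: the log2 ratio of mean levels went from 2.24 to 3.67 for *Cdh1*, from 0.38 to 1.81 for *Ctnnd1* and from -4.06 to -2.62 for *Cdh2*. No member changed direction under either.

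Between the tissues, adult liver had 7 of 9 members called against fetal liver, 5 higher and 2 lower (background 83.7%). The log2 fold changes were 1.04 for *Jup* (SE 0.08), 0.98 for *Cdh2* (SE 0.11), 0.64 for *Ctnnd1* (SE 0.07), 0.58 for *Ctnna1* (SE 0.06) and 0.30 for *Cdh1* (SE 0.07), but each of these 5 directions turned when libraries were scaled by their total count, and *Alb* alone took 22.5% to 23.6% of the counts of adult liver. By total count, *Cdh1* was at 35.4 and 37.0 CPM in adult liver and at 85.5 and 74.6 CPM in fetal liver. *Cdh11* (log2 fold change -5.91, SE 0.36) and *Cdh3* (-3.89, SE 0.22) were lower in adult liver under every scaling. *Ctnnb1* stood at -0.06 (SE 0.06, edgeR adjusted p = 0.321) and *Cdh6* at 0.28 (SE 0.35, edgeR adjusted p = 0.463), and neither was called. The sign of *Ctnnb1* turned with DESeq2's size factors, while by total count it was at -1.52 (log2 ratio of means, 135.7 against 388.5 CPM), and the sign of *Cdh6* turned with total counts. Without the second fetal liver library, *Cdh6* was called at 1.07 (edgeR adjusted p = 0.0035, under the same assumption for the lone library), and without the first it stood at -0.21, with an adjusted p between 0.0035 and 0.599 over 20 alternatives.

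Other genes of cell–cell junctions were counted from lists of names. Among 17 other cadherins, 5 were tested in 3D against 2D, with 2 higher and 1 lower, the higher ones being *Cdh17* at a log2 fold change of 1.52 (SE 0.30), which was at 0 and 0.0652 CPM in adult liver, and *Cdh13* at 0.17 (SE 0.06), the cadherin that lacks a cytoplasmic tail. *Cdh24* was lower at -0.90 (SE 0.10), and *Cdh5* was not called at -0.02 (SE 0.06, edgeR adjusted p = 0.733). Of 5 other catenin genes, 2 were tested: *Ctnnal1* was higher at 0.12 (SE 0.05), and *Ctnnbip1*, an inhibitor of β-catenin's binding to TCF factors, was lower at -0.35 (SE 0.08). The 3D and 2D libraries overlapped for *Ctnnal1* (35.2 to 40.8 and 34.9 to 36.1 CPM) and *Cdh13* (137.9 to 162.1 and 134.3 to 149.8 CPM). In iHLO against 2D-iH and in iHEA against 2D-iHE, 0 other catenins were called higher.
Of 17 desmosome genes, 11 were tested, 6 higher and 3 lower, where 38.7% of all tested genes were higher and 37.2% lower, and the called shares of all these lists are to be read against the 75.9% of the whole table. The list had a median log2 fold change of 0.13 against 0.01 over all tested genes. Desmosomes are the junctions that anchor keratin filaments and share plakoglobin with the cadherin complex. The desmosomal cadherins *Dsg3* (5.39, SE 0.41) and *Dsg2* (3.27, SE 0.12) and the plakophilin *Pkp3* (4.34, SE 0.36) had the largest increases, and *Ppl* (-1.39, SE 0.05), *Pkp1* (-1.36, SE 0.06) and *Evpl* (-0.65, SE 0.10), genes of desmosomal plaque proteins, decreased. In 2D, *Dsg3* was at only 0.18 to 0.41 CPM and *Pkp3* at 0.50 to 0.79 CPM, so the sizes of these 2 increases rest on low 2D levels. *Dsg2* was at 14 to 21.0 CPM in 2D, 148.1 to 181.8 CPM in 3D and 273.3 and 286.0 CPM in adult liver, but was higher in iHLO than in adult liver when scaled by total count.

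Nectins are immunoglobulin-type adhesion proteins of the same junction, and with the actin linkers they made a list of 17 tested genes. Of the 16 over the filter in both 3D and 2D, 5 were higher and 7 lower in 3D. *Camsap3* (1.94, SE 0.11), a microtubule minus-end protein of epithelial junctions, *Shroom3* (1.09, SE 0.05), which drives apical constriction, and *Nectin1* (0.99, SE 0.17) had the largest increases. *Enah* (-2.21, SE 0.08) and *Vcl* (-1.30, SE 0.06) had the largest decreases, the latter being vinculin, which binds αE-catenin under tension. *Nectin4* passed the filter through 2D, with 142 to 245 counts there and 2 to 9 counts in 3D, and is not counted.
The list of regulators had 16 tested genes, and of the 15 over the filter in both 3D and 2D, 5 were higher and 7 lower. *Snai1* (-2.79, SE 0.21) and *Snai2* (-2.65, SE 0.20), repressors of *Cdh1* transcription, decreased. The 3D libraries also lay below the 2D libraries without overlap for *Zeb2* (10.3 to 12.6 against 28.8 to 32.2 CPM), *Zeb1*, *Twist1*, *Fer* and *Ptprf*. *Grhl2*, an activator of epithelial genes, had 10 to 29 counts in 2D and 4 to 8 in 3D and is not counted. *Adam15* (0.58, SE 0.05), *Ptpn1* (0.56, SE 0.05) and *Adam10* (0.20, SE 0.06), which code for 2 metalloproteases and a phosphatase, increased. *Snai1* was at 112.4 and 126.0 CPM in fibroblasts, 7.65 to 10.3 CPM in 2D and 0.92 to 1.89 CPM in 3D, and *Snai2* at 78.1 and 71.4, 8.01 to 10.5 and 1.00 to 2.19 CPM.

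**Figure D5:**
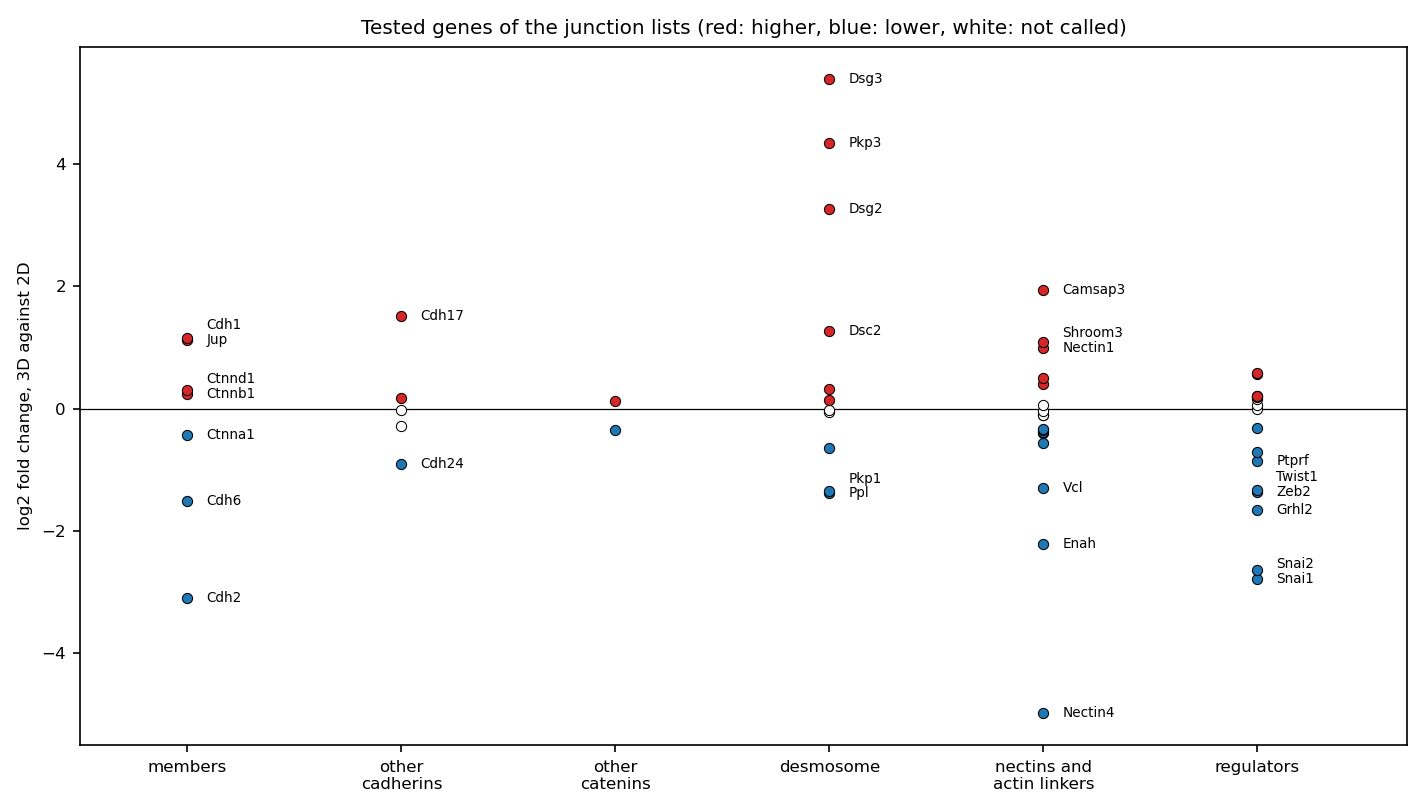
Log2 fold change of 3D against 2D (4 libraries each) for every tested gene of 6 lists, 1 point per gene, red where called higher, blue where called lower and white where not called by edgeR. Each list holds genes in both directions, with *Dsg3*, which was at only 0.18 to 0.41 CPM in 2D, highest at 5.39. The lowest point is *Nectin4*, which had 2 to 9 counts in 3D.

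Between iHEA and iHLO, 3 of the 11 tested desmosome genes were called, all higher in iHEA, where 2.26% of all tested genes were called: *Dsg3* at 1.10 (SE 0.12), *Pkp3* at 1.09 (SE 0.16) and *Dsp* at 0.22 (SE 0.05). Among other cadherins *Cdh17* was called at 0.23 (SE 0.05), and of the nectins and actin linkers, the regulators and the other catenins 0 of 17, 0 of 16 and 0 of 2 were called by edgeR. The number of genes called in this contrast ranged widely between alternatives, and these genes are named because they were few, after their values were seen. *Cdh17* also carried a difference between the iEC effects in 3D and 2D (1.65, SE 0.08, edgeR adjusted p = 7.53e-07), as it was at 39.0 and 37.3 CPM in 2D-iHE against 100.1 and 106.6 CPM in 2D-iH (log2 fold change -1.42, SE 0.06).
In 2D-iHE against 2D-iH, where 8.17% of all tested genes were called, the desmosome genes *Dsg2* (-0.44, SE 0.08) and *Pkp4* (-0.22, SE 0.05) were lower and *Ppl* (0.18, SE 0.05) was higher. Of the actin linkers, *Ajuba* was higher (0.33, SE 0.06) and *Lima1* lower (-0.17, SE 0.05), and of the regulators *Grhl1* was lower (-0.44, SE 0.09). The difference between the iEC effects was called for 3 of the 10 desmosome genes over the filter in both 2D conditions (3.14% of all tested genes), all with a higher value in 3D, *Dsg2* (0.67, SE 0.10), *Dsc2* (0.38, SE 0.09) and *Dsp* (0.29, SE 0.06), and for *Lima1*, *Grhl1* and *Zeb1*. *Dsg3* had only 6 to 15 counts in the 2D libraries, was under the filter in 2D-iHE and is not counted.

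In the comparisons with fibroblasts and livers, the lists moved in both directions, and between 83.7% and 85.3% of all tested genes were called, so most of these counts are near the share of the whole table. Only genes over the filter in both conditions of a comparison are counted here. Of the desmosome genes, 6 were higher and 1 lower of 7 in 2D-iH against fibroblasts, 8 higher and 1 lower of 10 in 2D-iH against fetal liver, and 5 higher and 2 lower of 9 in iHLO against adult liver. Of the nectins and actin linkers, 7 were higher and 7 lower of 16, 13 higher and 2 lower of 17, and 10 higher and 6 lower of 16 in the same comparisons. Of the regulators, 4 were higher and 8 lower of 14, 9 higher and 4 lower of 16, and 7 higher and 7 lower of 16. Of the other cadherins, 1 was higher and 1 lower of 3, 3 higher and 1 lower of 4, and 3 higher and 0 lower of 3. Between adult and fetal liver, 8 desmosome genes were higher and 1 lower of 9, 9 nectins and linkers higher and 7 lower of 17, 3 regulators higher and 10 lower of 17, and 1 other cadherin higher and 2 lower of 5. All these counts are under TMM scaling, and with libraries scaled by total count those with adult liver moved, except for the other cadherins. Of the same called genes, 6 desmosome genes were then higher and 3 lower in adult than in fetal liver, with 5 higher and 11 lower for the nectins and linkers and 1 higher and 12 lower for the regulators. In iHLO against adult liver, 7 desmosome genes were then higher and 0 lower, with 14 higher and 2 lower for the nectins and linkers and 12 higher and 2 lower for the regulators. In 2D-iH against fibroblasts or fetal liver, 0 called genes of these lists turned.

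The genes whose log2 CPM was most like that of *Cdh1* over the 14 libraries, among 14121 genes, were *Fut2*, *Rnf31*, *Tpt1*, *Tnfrsf11a* and *Ifi214*, with Pearson's r between 0.985 and 0.993. Of the members, *Jup* had an r of 0.972 with *Cdh1*, *Ctnnb1* 0.904, *Cdh6* 0.837, *Ctnna1* 0.715, *Ctnnd1* 0.083, *Cdh2* -0.845, *Cdh11* -0.866 and *Cdh3* -0.926. The genes most like *Cdh2* were *Fam171b*, *Mpdz*, *Calr3*, *Cald1* and *Rab30*, with r between 0.956 and 0.972. The points fall into 7 conditions of 2 libraries each, so r describes the order of conditions.

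Markers of other cell types gave the makeup of the samples beside these values. The 4 cholangiocyte markers summed to 1044 to 1297 CPM in 2D and 1161 to 1462 CPM in 3D, against 27.9 to 29.9 CPM in adult liver, with members in both directions. *Epcam* rose from 11.2 to 14.99 CPM in 2D to 205.1 to 332.1 CPM in 3D and *Krt7* was higher (log2 fold change 0.23, SE 0.07), while *Sox9* fell (-1.55, SE 0.40) and *Krt19* was lower (-0.25, SE 0.09). The 6 hepatocyte markers summed to 282 to 316 CPM in 2D and 279 to 390 CPM in 3D, against 546187 to 584657 CPM in adult liver, and *Serpina1a* was at the floor in all 8 culture libraries. Most of this sum was *Apoa1*, and *Ttr* was the one of 3 tested that was called, going from 1.28 to 2.72 CPM in 2D to 75.4 to 86.8 CPM in 3D (log2 fold change 5.37, SE 0.13). The 6 endothelial markers, which include *Cdh5*, summed to 407 to 474 CPM in 2D and 864 to 1336 CPM in 3D, with the highest values in iHLO, which held no iECs. Most of the rise was *Vwf*, which went from 14.97 to 27.5 CPM in 2D to 419 to 767 CPM in 3D. *Tek* rose from 1.03 to 2.29 CPM to 78.99 to 118.9 CPM. *Pecam1* and *Tie1* were also higher in 3D without overlap, at no more than 0.67 and 13.7 CPM. *Cdh5* overlapped between 2D and 3D. *Kdr* went the other way, from 0.31 to 0.68 CPM in 2D to 0 to 0.12 CPM in 3D. The 6 fibroblast markers summed to 1606 to 1898 CPM in 2D and 585 to 729 CPM in 3D, with *Col1a2* and *Thy1* at the floor in both and *Vim* falling from 1603 to 1887 CPM to 583 to 723 CPM. *Pdgfra* of this list went the other way, from 0.21 to 0.49 CPM in 2D to 2.00 to 6.21 CPM in 3D. The endothelial and fibroblast sums of 2D and 3D did not overlap, while those of cholangiocyte and hepatocyte markers did, and their part in the members' values was not tested.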

How the data were processed

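RNA sequencing libraries of 7 conditions, 2 each, were analysed from a table of gene counts that the authors deposited. Per the submitters' processing notes, the authors used Trimmomatic 0.36, HISAT2, Cufflinks and HTSeq with the mouse genome GRCm38 (mm10) to make these counts. Versions of the other tools and the strand setting are not given in the sources used here. Groups came from the sample labels, and 0 columns were left unused. One iHEA column carries conflicting numbers and was used as iHEA without a number.

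The filter on low values kept genes whose log2(count + 1), averaged over libraries, reached 3. It left 13409 genes over the 8 culture libraries and 14121 over all 14. Counts were scaled by TMM and tested with edgeR 4.0.16 (quasi-likelihood, R 4.3.3), and genes with a Benjamini-Hochberg adjusted p under 0.05 were called. Comparisons among cultures used the culture libraries, those with fibroblasts or liver used all 14. Fold changes are on the log2 scale. The scripts were tested on simulated data. Alternatives were DESeq2 1.42.0, other size factors and filters, other sets of libraries, the replicate block (numbered libraries only, so without the second iHEA library) and leaving out each library. Same-numbered libraries of different conditions did not deviate together (15 correlations from -0.07 to 0.05, 0 over 0.1, with iHEA left out). This check cannot show whether the numbers pair samples. Floors cover counting error only, while intervals of fold changes are edgeR's and include the spread between libraries.

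The members and lists were chosen with earlier results of these data known. Members over the filter are given in each comparison, with *Cdh3* and *Cdh11* not tested between cultures in the main fits. From the other lists, the called genes with the largest changes in 3D against 2D are named, at most 3 in each direction, and all called genes of a list with 5 or fewer. The 5 genes most like *Cdh1* and *Cdh2* were taken by Pearson correlation of log2 CPM with a prior count of 2.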

Additional observations from a re-analysis of the deposited data

Results flagged for a closer look

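*Cdh1* in the first 2D-iHE library, at 197.2 CPM, stood apart from the other 3 libraries in 2D, which lay between 195.3 and 195.5 CPM. The gap was 0.891 of the range of the 4 libraries, above Dixon's critical value for 4 samples, a limit that chance passes in about 1 of 20 groups. The whole range of these libraries was small beside the distance to the 3D libraries, the lowest of which was at 391.8 CPM.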

How the results depend on the processing

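The calls of the members in 3D against 2D (pooled, and with and without iECs), in 2D-iH against fibroblasts and in iHLO against adult liver were kept under every alternative that tested them. *Cdh3* and *Cdh11* were not tested with the stricter filter, nor in iHLO against adult liver with only the libraries compared. The contrasts with and without iECs were less stable, and the cause was not tested. Fits with the replicate block also left out the second iHEA library, which has no number, so 2 choices changed at once in them. In iHEA against iHLO, 0 members were called with all 14 libraries and 0 with only the libraries compared, and between 0 and 2 when 1 library was left out. There 881 genes were called without the filter on low counts, 617 with the replicate block and 90 with only the libraries compared, and between 93 and 723 when 1 library was left out. In 2D-iHE against 2D-iH, members called were 1 by DESeq2, 3 with the replicate block, 3 with only the libraries compared and between 0 and 2 when 1 library was left out (2 without either iHEA library), and genes called were 1945 with the replicate block, 2046 with only the libraries compared and between 250.0 and 2014 when 1 library was left out. For the co-culture effect in 3D minus 2D, 1 member was called by DESeq2, 1 with the replicate block and between 0 and 2 when 1 library was left out, and genes called were 901 without the filter, 772 with the replicate block and between 129 and 959 when 1 library was left out. The conditions with the highest and the lowest mean were the same for 5 of 9 members when levels were scaled by total count, and the full order of the 7 conditions for 3 of 9 (6 of 9 with DESeq2 size factors). In 2D-iH against fetal liver, *Cdh2* was called in 6 of 20 alternatives. Whether the replicate numbers pair the samples is unknown, so the block is given as a number only. Counts of 0 to 7 limit *Cdh3* and *Cdh11* in cultures, where they were tested only without the filter on low counts. There both were called lower in 3D against 2D by edgeR. The log2 fold change was -2.76 for *Cdh3* (edgeR adjusted p = 0.0256) and -4.48 for *Cdh11* (edgeR adjusted p = 0.0239).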
